A study of Xenopus laevis with 12 samples.

Results

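Potassium channel genes were followed in whole brains of Xenopus laevis tadpoles, the African clawed frog, after an early exposure to thioridazine and in control brains. The set held every gene number whose symbol starts with kcn and a letter and a digit, or with kcnma, kcnmb or kcnip, and that had at least 10 reads in 3 or more of the 12 libraries. Of 115 gene numbers with such a symbol, 97 met the read threshold, out of 37018 gene numbers in the tables. Of the 97, 49 carried the suffix .L and 48 the suffix .S, the long and short copies of a gene that this allotetraploid frog inherited from a pair of ancestral genomes. They belonged to 64 gene names, 33 of them with both copies in the set.

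The 4 groups had 3 libraries each: thioridazine at Nieuwkoop-Faber (NF) stage 47, control at NF 47, thioridazine at NF 45 and control at NF 45. Thioridazine is a phenothiazine antipsychotic, also known as a blocker of cardiac potassium channels in mammals. Exposed embryos were kept in 90 µM of the drug between NF 14 and NF 26, at 18 °C and with 50 embryos in 10 mL. The labels describe the exposed tadpoles as having brain abnormalities and the controls as wild type, kept at the same temperature over the same window, and both were reared at 14 °C before and after it. The drug was given in that window alone, and brains were taken later. How many brains or clutches went into a library is not given in the labels, so p-values measure the spread between these samples, which may be partly technical.

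Potassium channels let potassium ions leave a cell and so set its resting voltage, end its action potentials and space its firing. Voltage-gated channels (Kv1 to Kv4, Kv7, and the EAG and ELK channels) open on depolarisation, calcium-activated channels (BK, SK and IK) and sodium-activated channels (Slack and Slick) open after ion entry, and inward rectifiers (Kir) and 2-pore-domain (K2P) channels hold the resting potential. Auxiliary subunits (KChIP, KCNE, BK beta) and silent subunits, which form no channel alone but join Kv2 subunits, change how these channels open or reach the membrane. In the brain they also serve glia, which take up the potassium that active neurons release. Roles named below are known mainly from mammals.

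Read totals per library lay between 12843954 and 18164871. Both NF 45 libraries numbered 2 stood apart from the other 10 libraries on the first component of expression, at 118.3 (thioridazine) and 104.4 (control) against -56.16 to 9.6, and NF 45 control replicate 3 stood apart on the second component. Skin and epithelium markers summed to 21.2 CPM (reads scaled to a common library size) in thioridazine replicate 2 and to 34.8 CPM in control replicate 2, and to between 192 and 1524 CPM in the other 10 libraries. Liver and gut markers summed to 1599 CPM in NF 45 control replicate 3 and to between 568 and 804 CPM in the others. Neuron markers summed to between 4554 and 6759 CPM, and all 18 copies measured had reads. In bulk RNA, fewer cells of a type and less RNA per cell cannot be told apart.

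The 97 genes fell into 14 families, of which Kir, with 18 genes, K2P, with 16, and Kv1, with 11, had the most members. Their CPM values, which use scaled library totals and are not per length, were compared between libraries and not between genes. The genes just inside the read threshold were kcne3.S, with 115 reads in all and 4 to 25 per library, and kcna7.S, with 138 in all and 1 to 53 per library. Just outside it were kcna7.L, with 112 reads and at least 10 in 2 libraries, and kcnk16.L, with 75 reads and likewise 2 libraries. Some genes below the threshold had most of their reads in a single library. All 38 reads of kcne2.L lay in NF 45 control replicate 3, and 34 of 42 reads of kcnj1.L and 18 of 21 reads of kcnj1.S lay in NF 45 thioridazine replicate 2. The channel kcnj1 is known from the kidney. No read was counted for kcnmb1.L, a BK beta subunit known from smooth muscle.

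The stage comparison asked which potassium channel genes differed between NF 47 and NF 45 brains, with both treatments averaged. In it 8 of 97 genes rose and 0 fell (edgeR's quasi-likelihood test, adjusted p under 0.05). Among all 26570 genes tested, 1.97% rose and 1.02% fell. The 8 genes were the KChIP subunits kcnip1.L and kcnip2.S, the BK beta subunits kcnmb4.L and kcnmb4.S, the Kv1 channel kcna6.S, the silent subunit kcnf1.L, the inward rectifier kcnj4.L and the K2P channel kcnk4.L. Their log2 fold changes lay between 0.42 and 0.90.

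**Figure D1:**
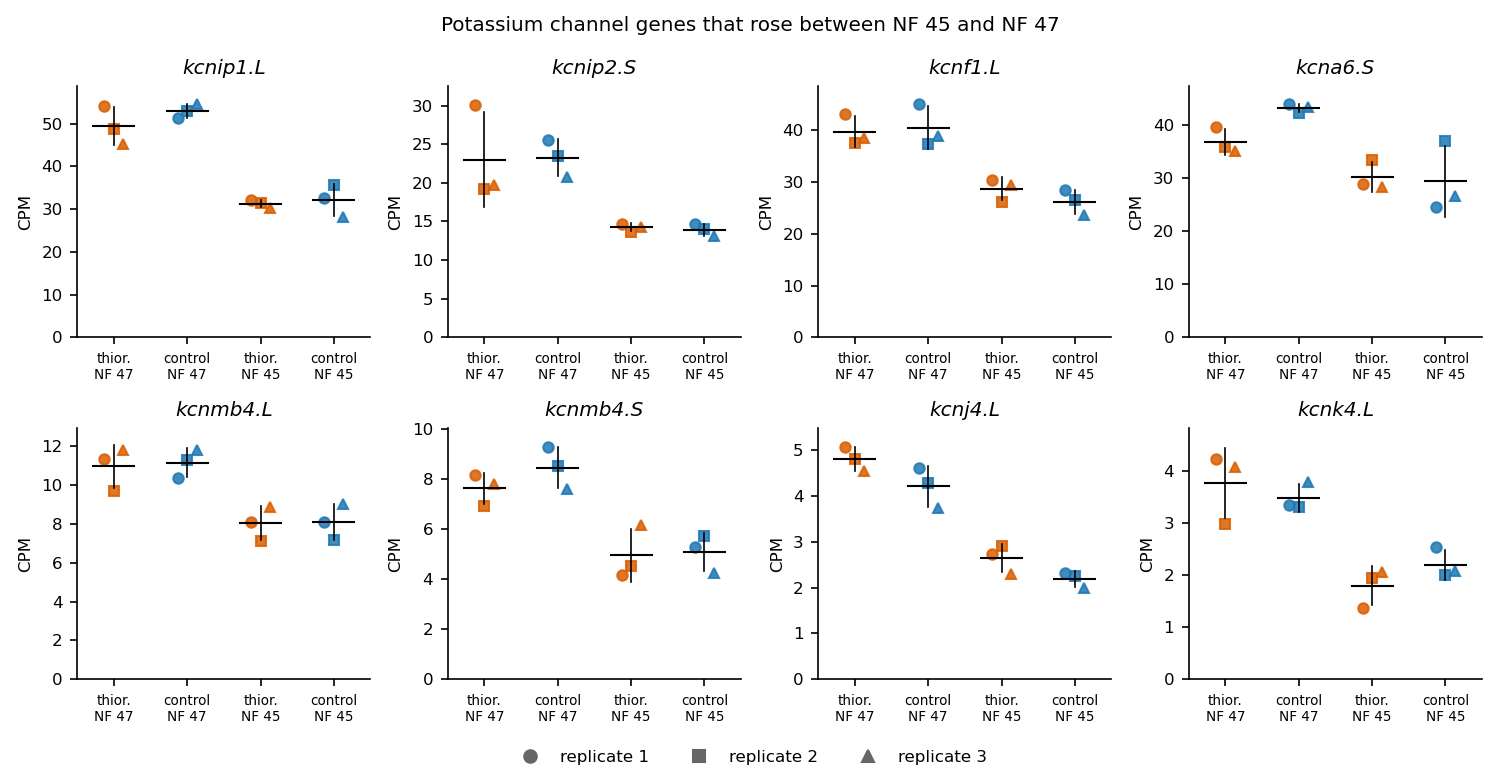
CPM of the 8 potassium channel genes called higher at NF 47, by group (thior., thioridazine), with a point per library shaped by replicate number, a horizontal line at the mean and a bar of 1 SD (n = 3 per group). In 7 of the 8 genes every NF 47 library lies above every NF 45 library, and in kcna6.S NF 45 control replicate 2, at 36.96 CPM, lies within the NF 47 range.

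The gene kcnip1.L (gene number 444582) encodes a KChIP, a calcium-binding subunit that brings Kv4 channels to the membrane and slows their inactivation. It stood at 54.2, 48.7 and 45.4 CPM in the thioridazine and 51.3, 52.9 and 54.7 CPM in the control libraries of NF 47, against 32.2, 31.3 and 30.4 CPM in the thioridazine and 32.5, 35.6 and 28.2 CPM in the control libraries of NF 45. All 6 libraries of NF 47 lay above all 6 of NF 45. The log2 fold change was 0.69 ± 0.0756, with an adjusted p of 0.006996. It was the 1 gene of the 97 that was called in each of the 12 fits that left out 1 library.

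A second KChIP gene, kcnip2.S (779161), averaged 23.1 ± 4.198 CPM at NF 47 and 14.1 ± 0.631 CPM at NF 45 (SD, n = 6 each). The NF 47 libraries began at 19.2 CPM and the NF 45 libraries ended at 14.7 CPM, so the stages did not overlap. The log2 fold change was 0.72 ± 0.1202, with an adjusted p of 0.01822. The third KChIP gene, kcnip4.L, differed by 0.35 ± 0.258 and was not called. The Kv4 channels to which KChIPs bind were not called either. Of these, kcnd1.S differed by 0.22 ± 0.133 and kcnd3.L by 0.05 ± 0.2196. The levels of kcnd3.L were widely spread, at 41.9, 59.6 and 33.8 CPM in thioridazine and 63.02, 48.8 and 43.6 CPM in control brains of NF 47, against 41.8, 63.7 and 26.5 CPM in thioridazine and 45.6, 62.4 and 40.04 CPM in control brains of NF 45.

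The BK channel, which opens to voltage and calcium together, had 5 genes in the set, and all 5 had a positive stage difference, with a median of 0.29. Both copies of kcnmb4, the beta subunit of neurons that slows BK opening, rose. The .S copy, kcnmb4.S (108712485) averaged 8.04 ± 0.801 CPM at NF 47 and 5.02 ± 0.8305 CPM at NF 45 (SD, n = 6 each), a log2 fold change of 0.68 ± 0.142 with an adjusted p of 0.03474. The .L copy, kcnmb4.L (108711099) averaged 11.1 ± 0.856 CPM at NF 47 and 8.07 ± 0.801 CPM at NF 45, a log2 fold change of 0.45 ± 0.1103 with an adjusted p of 0.04906. The stages did not overlap for either copy. The pore subunit kcnma1.L, at 47.2 ± 4.24 CPM at NF 47 and 41.1 ± 5.74 CPM at NF 45, differed by 0.20 ± 0.0983 and was not called, nor were the other beta subunits, kcnmb2.S at 0.13 ± 0.192 and kcnmb3.S at 0.29 ± 0.207.

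Among the voltage-gated channels, kcna6.S (108712591), a delayed rectifier of axons and nerve terminals, stood at 39.5, 35.7 and 34.99 CPM in thioridazine and 43.8, 42.2 and 43.3 CPM in control brains of NF 47, against 28.8, 33.3 and 28.2 CPM in thioridazine and 24.5, 36.96 and 26.6 CPM in control brains of NF 45. Only replicate 2 of the NF 45 controls reached the NF 47 range. The log2 fold change was 0.42 ± 0.102, with an adjusted p of 0.04902. Its other copy, kcna6.L, differed by more, at 0.71 ± 0.185, and its stages did not overlap, but its adjusted p of 0.06043 missed the threshold. The other 9 Kv1 genes were not called, and 6 of the 11 Kv1 genes had a negative difference. The copies of kcna1 differed in sign, at 0.10 ± 0.134 for kcna1.L and -0.35 ± 0.215 for kcna1.S. Those of kcna2, its common partner in axons, were at -0.23 ± 0.286 and -0.04 ± 0.153.

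The silent subunit gene kcnf1.L (108717182) averaged 40.1 ± 3.25 CPM at NF 47 and 27.5 ± 2.48 CPM at NF 45 (SD, n = 6 each), without overlap. The log2 fold change was 0.55 ± 0.0822, with an adjusted p of 0.01554. Its other copy, kcnf1.S, differed by the same amount, 0.55 ± 0.532, and was not called. Its libraries numbered 3 lay far below the others at both stages. Of the Kv2 channels that such subunits join, kcnb2.S differed by -0.01 ± 0.109 and was not called. Of the 8 silent subunit genes 6 had a positive difference, with a median of 0.38.

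Of the resting channels, kcnj4.L (108714548), a strong inward rectifier of forebrain neurons, stood at 5.06, 4.81 and 4.55 CPM in thioridazine and 4.600, 4.29 and 3.73 CPM in control brains of NF 47, against 2.73, 2.900 and 2.31 CPM in thioridazine and 2.32, 2.24 and 2.002 CPM in control brains of NF 45. The stages did not overlap, and the log2 fold change of 0.90 ± 0.147 (adjusted p 0.01677) was the largest of the 8. The K2P channel kcnk4.L (108713904), which opens to membrane stretch and warmth, stood at 4.23, 2.99 and 4.08 CPM in thioridazine and 3.35, 3.300 and 3.798 CPM in control brains of NF 47, against 1.36, 1.95 and 2.07 CPM in thioridazine and 2.53, 1.99 and 2.08 CPM in control brains of NF 45. It too showed no overlap, and its log2 fold change was 0.86 ± 0.1802 (adjusted p 0.03474). The related stretch-sensitive channel kcnk2 was not called, at 0.41 ± 0.149 for the .L and 0.26 ± 0.298 for the .S copy. Kir genes as a family were split, with 9 of 18 above 0 and a median of -0.02.

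Every NF 47 library lay above every NF 45 library in 8 of the 97 genes, against 2.35% of all genes, and every one lay below in 0, against 1.57%. These 8 were 7 of the called genes and kcna6.L. Over the 97 genes the median log2 fold change was 0.10, with 59 above 0, against 45.7% of all genes, whose median was -0.03. In families with no call, all 7 SK and IK genes had a positive difference, with a median of 0.16, including kcnn1.L at 0.33 ± 0.118 and kcnn1.S at 0.36 ± 0.135. Among the sodium-activated channels the median was 0.29, with kcnt2l.S at 0.36 ± 0.1200. Both copies of kcnt2 and of kcnt2l were above 0, and both copies of kcnt1 were below 0, at -0.05 for kcnt1.L and -0.30 for kcnt1.S. The 8 Kv7 genes, whose M current restrains repeated firing, were split 4 to 4, and kcnq3.L and kcnq3.S differed by -0.24 ± 0.326 and -0.31 ± 0.309. Kv3 genes, channels of fast-firing neurons, had 1 of 3 above 0.

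Within a single treatment the same contrast called 0 of the 97 genes, at an unadjusted p under 0.05 for 9 genes in thioridazine brains and 12 in controls, all of them higher at NF 47. Of all genes, 0% were called in either, and 5.07% in thioridazine brains and 6.31% in controls were higher at that unadjusted p. DESeq2 called 3 of the 28 potassium channel genes to which it gave an adjusted p in thioridazine brains (10.7%, against 1.68% of all genes) and 5 of 59 in controls (8.47%, against 2.15%). In controls limma-voom called 8 of 97, against 3.43% of all genes. Without both NF 45 libraries numbered 2, edgeR called 8 of 96 in controls, of which 5 rose, against 1.73% of all genes, and 3 fell, against 1.32%. Those that rose were kcna6.L, kcna6.S, kcnf1.L, kcnip1.L and kcnn1.S, and those that fell were kcnj16.L, kcnk1.L and kcnk1.S. The gene kcnip1.L differed by 0.66 ± 0.107 in thioridazine and by 0.72 ± 0.107 in control brains, with adjusted p of 0.2242 and 0.1162. A difference in the stage change between treatments was called for none of the 97, as described below for the treatment effect.

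Neuron markers differed in the same direction as the 8 genes. Of 18 neuron marker copies, 16 had a positive stage difference, with a median of 0.21 and 2 called higher, and their sum ran between 5688 and 6759 CPM at NF 47 and between 4554 and 6259 CPM at NF 45. Oligodendrocyte markers were above 0 in 12 of 12 copies, with a median of 0.37 and 3 called higher. Of all genes, 1.97% were called higher. Skin markers were below 0 in 11 of 11 copies, with 0 called, and their sum ran between 192 and 279 CPM at NF 47 and between 21.2 and 1524 CPM at NF 45. Pituitary markers were above 0 in 9 of 9 copies, with a median of 0.80 and 0 called, and their sum averaged 491 CPM in thioridazine and 512 CPM in control brains of NF 47, against 233 CPM in thioridazine and 300.2 CPM in control brains of NF 45. Pigment cell markers were below 0 in 5 of 5 copies, retina markers in 10 of 11 and muscle markers in 12 of 14, with 0 called in each. The retina sum was high at NF 45 only in thioridazine replicate 1, at 419 CPM, and control replicate 3, at 481 CPM. It lay between 48.2 and 71.4 CPM in the rest of NF 45 and between 41.1 and 120 CPM at NF 47. The part of these cell types in the rise of the 8 genes was not tested.

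The stage count depended on the test and on single libraries. DESeq2 called 9 of the 88 potassium channel genes with an adjusted p, 10.2%, near the 8.95% of all genes. With limma-voom 18 of 97 were called, 18.6% against 12.6%. With the replicate number as a block over both stages 10 were called, 10.3% against 6.93%, and with copies summed 7 of 64, 10.9% against 3.18%. These shares count rises and falls together, which in the main edgeR fit were 8.25% against 2.99%. Leaving out single libraries lowered or raised the count of 8. It was 4 without NF 45 control replicate 1, NF 45 thioridazine replicate 1, NF 47 thioridazine replicate 3 or any 1 of the 3 NF 47 controls. It was 3 without NF 45 control replicate 3 and 1 without NF 47 thioridazine replicate 1. Without any of the other 4 libraries it lay between 6 and 9. Counts over all genes also moved when a library was left out, with an example in the closing section. No share of all genes is set beside these counts, so they are not a result about potassium channel genes alone. The genes kcnf1.L and kcnj4.L were called in 11 of these 12 fits and kcnip2.S in 10, but kcnk4.L and kcnmb4.S in 4, kcna6.S in 3 and kcnmb4.L in 1.

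Without both NF 45 libraries numbered 2, 22 of 96 potassium channel genes were called, 17 higher (17.7%) and 5 lower (5.21%). Of all genes, 7.38% were called higher and 6.66% lower, so the share that fell was near that of all genes. The 17 held all 8 genes above and, among others, kcna6.L, kcnd1.S, kcnma1.L, kcnn1.L, kcnn1.S, kcnt2.S, kcnt2l.S and kcnv1.L. The 5 that fell in this fit were both copies of kcnk1, both copies of kcnj16, and kcne5.L. The channel kcnk1 is a weakly conducting K2P channel, kcnj16 pairs with kcnj10 in glia and kidney, and kcne5 is an auxiliary subunit of Kv7 channels. The log2 fold changes were -1.54 ± 0.278 for kcnk1.S, -0.90 ± 0.159 for kcnk1.L, -0.90 ± 0.216 for kcnj16.S, -0.85 ± 0.180 for kcnj16.L and -0.77 ± 0.159 for kcne5.L.

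With all 12 libraries these 5 genes were not called, and their NF 45 levels were spread widely. The level of kcnk1.S at NF 45 was 4.02, 0.223 and 4.85 CPM in the thioridazine replicates 1, 2 and 3 and 3.04, 0.374 and 9.55 CPM in the controls in the same order. Replicate 2 lay far below the others in both groups, and below every NF 47 library, which lay between 1.41 and 1.98 CPM. The gene kcne5.L showed the same order, at 16.98, 1.12 and 11.7 CPM in thioridazine and 11.01, 1.31 and 15.4 CPM in control brains of NF 45, against 6.49 to 8.98 CPM at NF 47. So did kcnj15.S, an inward rectifier of epithelia, at 7.88, 1.06 and 3.49 CPM in thioridazine and 5.07, 0.499 and 7.24 CPM in control brains of NF 45. In kcnj16.L only the control replicate 2 was low, at 13.3, 8.42 and 8.51 CPM in thioridazine and 10.4, 1.12 and 15.5 CPM in control brains.

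**Figure D2:**
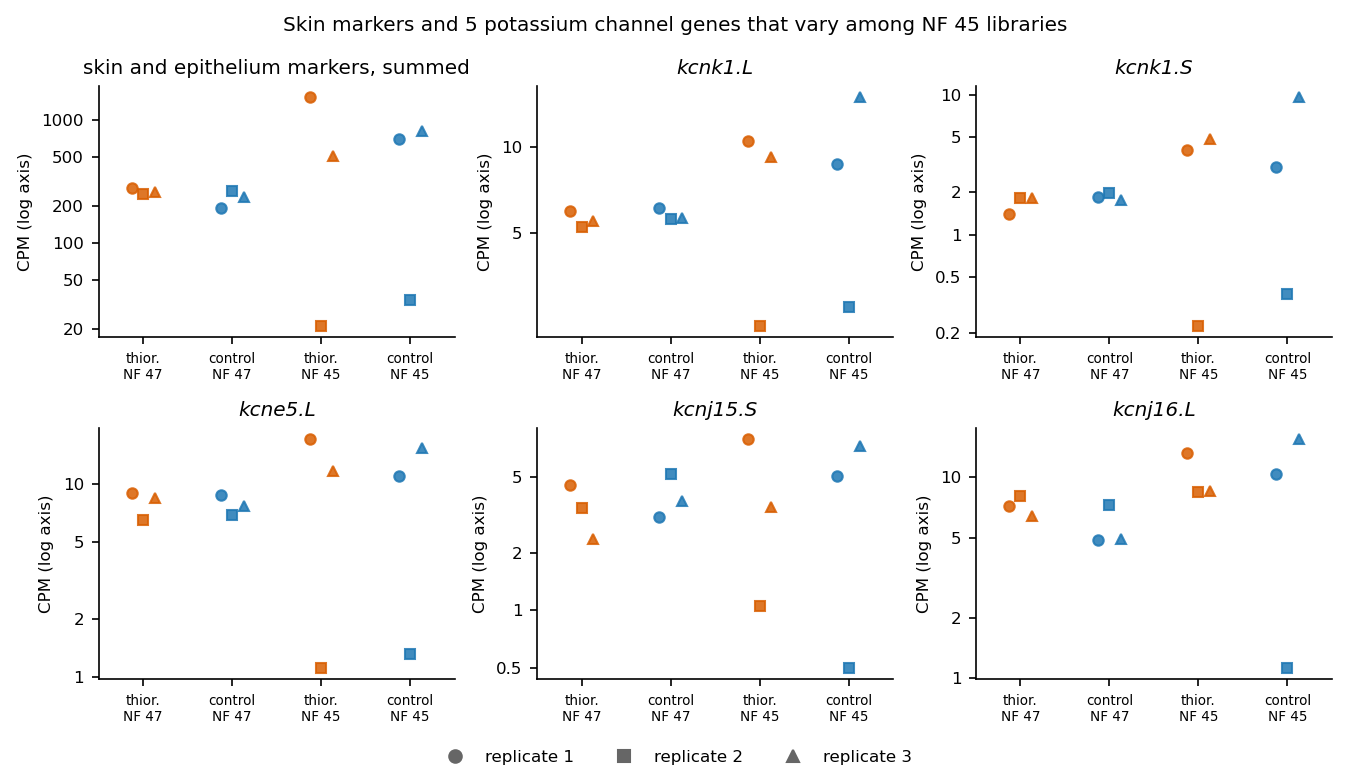
CPM on log axes of the summed skin and epithelium markers and of 5 potassium channel genes, by group (thior., thioridazine), with a point per library shaped by replicate number. At NF 45 the libraries numbered 2 (squares) lie lowest in the marker sum, at 21.2 CPM for thioridazine and 34.8 CPM for control, and in kcnk1.L, kcnk1.S, kcne5.L and kcnj15.S, while kcnj16.L is low only in the control.

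The skin and epithelium markers were lowest in the same libraries. The part of skin tissue in the levels of these genes was not tested. Of the 97 genes, 5 lay more than 2-fold below the other replicates in both NF 45 groups, namely kcnk1.L, kcnk1.S, kcne5.L, kcnj15.S and kcnq1.S. This was 5.15% against 7.82% of all genes, so the share was below that of all genes. In the other direction, 1 of the 97 lay more than 2-fold above the other replicates in both groups, against 1.16% of all genes. Counting differences of any size, 62 of 97 genes lay above the other replicates in both, against 41.8% of all genes, and 17 lay below, against 38.8%. The muscle channel gene kcna7.S was highest in these libraries, at 2.96 CPM for thioridazine and 1.25 CPM for control, and at most 1.15 CPM elsewhere. It had at least 10 reads in only 3 libraries, both of these among them, so without them it would not have entered the set. Muscle markers summed to 3141 and 2260 CPM in the same NF 45 libraries numbered 2 and to at most 1229 CPM elsewhere.

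The treatment comparison set exposed brains against control brains at each stage and over both. Of the 97 genes 0 were called at NF 47, at NF 45 or with both stages averaged, and 0% of all genes were called (edgeR). At an unadjusted p under 0.05 there were 0 of 97 genes at NF 47, against 1.1% of all genes, 2 at NF 45, against 1.98%, and 1 for both stages averaged, against 2.95%. The 2 at NF 45 were kcnj10.L, lower, and kcne3.S, higher, and kcne3.S was also the 1 for both stages. The gene kcne3.S passed the read threshold only through exposed libraries. DESeq2 also called 0 of the genes to which it gave an adjusted p, against 0% of all genes at NF 47, 0.0345% at NF 45 and 0.0736% for both, and limma-voom called 0 of the 97, against 0% in each. The values below are therefore given as levels and differences, and not as changes.

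Libraries with the same replicate number within a stage deviated together (correlations in the account of the processing), so values are also given as same-numbered pairs. With the pair as a block, 0 of 97 genes were called in each comparison, where 0.00376% of all genes were called at NF 47, 0.0226% at NF 45 and 0.0941% with both stages averaged. At an unadjusted p under 0.05, blocked, 10 of 97 genes were lower and 1, kcne3.S, was higher with both stages averaged, against 5.18% and 4.01% of all genes. The smallest of these belonged to kcnn3.L, kcnn1.S, kcnj10.L, kcnh4.L, kcnh4.S and kcnj3.S, between 0.008768 and 0.01871, and the smallest adjusted p of a potassium channel gene was 0.3946.

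**Figure D3:**
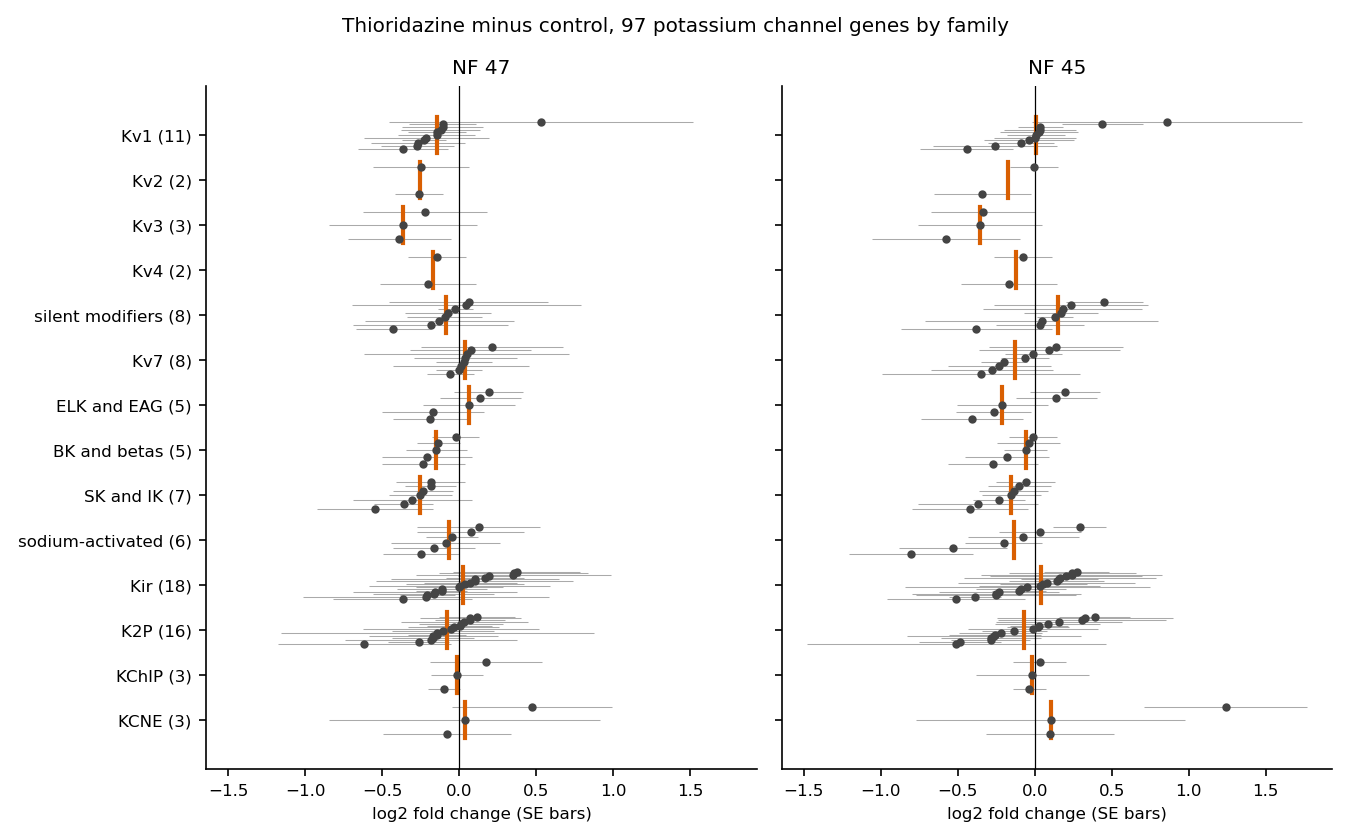
Log2 fold change of thioridazine over control at NF 47 (left) and NF 45 (right) for the 97 potassium channel genes, by family with the number of genes in brackets. Points are genes with their SE, and vertical bars are family medians. The SK and IK, BK and Kv3 families lie below 0 in every gene at both stages, and no gene was called.

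Most of the 97 genes lay slightly lower after thioridazine. The log2 fold change was below 0 in 62 genes at NF 47, against 50.3% of all genes, in 56 genes at NF 45, against 50.9%, and in 66 genes for both stages averaged, against 50.6%. The medians were -0.11 at NF 47, -0.04 at NF 45 and -0.10 for both, and those of all genes were -0.000983, -0.00379 and -0.00202. Without NF 45 control replicate 2, the NF 45 median was 0.03. The thioridazine library was lower than its same-numbered control in at least 5 of 6 pairs in 29 genes, 29.9% of the 97 against 15.1% of all genes, and higher in at least 5 of 6 in 6 genes, against 14.3%.

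Summed over the 97 genes, CPM was 1031, 1017 and 946 in the thioridazine and 1110, 1091 and 1035 in the control libraries of NF 47. The NF 47 groups did not overlap. At NF 45 the sum was 867, 983 and 803 CPM in the thioridazine libraries and 927, 1060.0 and 845 CPM in the controls. There the groups overlapped, but the thioridazine library was lower than its same-numbered control in 6 of 6 pairs over both stages. The sum of neuron markers was lower in the thioridazine library in 4 of 6 pairs, at 6759, 5688 and 6105 CPM in thioridazine and 6486, 6120 and 6390 CPM in control brains of NF 47. At NF 45 that sum was 4930, 5733 and 5877 CPM in thioridazine and 5084, 6259 and 4554 CPM in control brains. Marker sums of some other cell types were higher after thioridazine in most pairs. These were leukocytes and microglia in 6 of 6 pairs and muscle, pigment cells and retina in 5 of 6 each. The retina sum was uneven at NF 45, at 419, 71.4 and 60.9 CPM in thioridazine and 60.02, 48.2 and 481 CPM in control brains. The sums of astroglia and radial glia, oligodendrocytes, vessels, liver and gut, and pituitary were lower in 4 of 6 pairs each, as for neurons. That of skin was lower in 3 of 6 pairs and that of red blood cells in 2 of 6. The liver and gut sum came mostly from a single marker copy, rbp4.S, which averaged 637 CPM over the 12 libraries. The exception was NF 45 control replicate 3, with a sum of 1599 CPM, where rbp4.S was at most 795 CPM in any library. The muscle sum averaged 930 CPM in thioridazine and 578 CPM in control brains of NF 47 (SD 234 and 285, n = 3 each). The pigment cell sum averaged 190.3 CPM in thioridazine and 114 CPM in control brains of NF 47, and 299 CPM in thioridazine and 189 CPM in control brains of NF 45. Pituitary markers were below 0 in 9 of 9 copies with both stages averaged, with a median of -0.56. Without the pair as a block, 0 markers of the leukocyte, muscle, pigment cell, retina and pituitary lists were called. With the block and both stages averaged, 2 of 5 pigment cell markers were called higher and 2 of 9 pituitary markers lower. Of all genes, 0.0828% were called higher and 0.0113% lower in that fit. The part of neurons and of these cell types in the lower sum of channel genes was not tested.

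The small-conductance calcium-activated (SK) channels, which give the hyperpolarisation that follows action potentials, and the related IK channel had 7 genes in the set. All 7 were below 0 at both stages, with a median of -0.25 at NF 47 and -0.15 at NF 45. The gene kcnn1.S (108703710) stood at 22.1, 18.7 and 21.3 CPM in thioridazine and 27.1, 26.2 and 26.4 CPM in control brains of NF 47, where the groups did not overlap. At NF 45 it stood at 15.5, 21.5 and 15.02 CPM in thioridazine and 19.8, 24.00 and 14.1 CPM in control brains, where they did. Its log2 fold change was -0.36 ± 0.1896 at NF 47 and -0.15 ± 0.191 at NF 45, with an adjusted p of 1 at each. The other copy, kcnn1.L, stood at 11.9, 11.96 and 12.6 CPM in thioridazine and 13.02, 13.9 and 14.4 CPM in control brains of NF 47, and at 8.34, 11.4 and 8.75 CPM in thioridazine and 12.4, 12.2 and 8.93 CPM in control brains of NF 45. It was lower in the thioridazine library of all 6 pairs.

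Groups also did not overlap at NF 47 for kcnn2.S and kcnn3.S. The gene kcnn3.L had the largest difference of the family, -0.55 ± 0.377 at NF 47 and -0.42 ± 0.376 at NF 45. It stood at 3.398, 4.302 and 2.38 CPM in thioridazine and 5.08, 5.87 and 3.798 CPM in control brains of NF 47. Its levels at NF 45 were 2.27, 5.86 and 2.25 CPM in thioridazine and 4.199, 5.42 and 4.31 CPM in control brains, so that pair 2 went the other way. Without NF 47 thioridazine replicate 3 the NF 47 difference was -0.35. The IK gene kcnn4.L differed by -0.30 ± 0.388 at NF 47 and -0.37 ± 0.389 at NF 45, with 3 of 6 pairs lower.

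**Figure D4:**
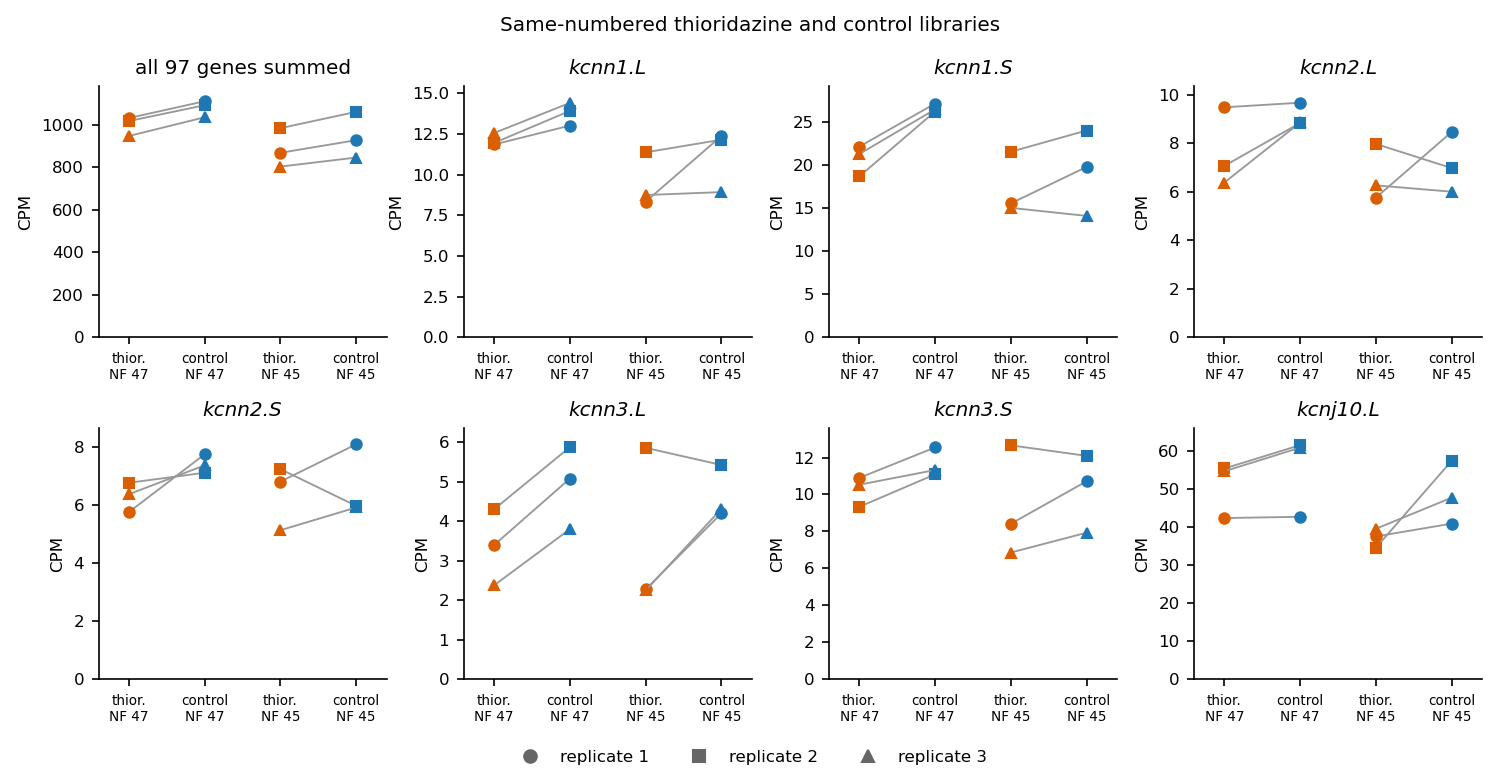
CPM in same-numbered thioridazine (thior.) and control libraries, joined by lines, for the sum of the 97 potassium channel genes, 6 SK genes and the glial channel gene kcnj10.L. The summed CPM, kcnn1.L and kcnj10.L are lower in the thioridazine library of all 6 pairs, and none of the genes was called. Of the 97 genes 4.12% were lower in all 6 pairs, near the 3.19% of all genes.

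In 8 of 97 genes all 3 thioridazine libraries of NF 47 lay below all 3 controls, 8.25% against 3.55% of all genes, and in 0 genes they lay above, against 3.81%. These were kcnn1.L, kcnn1.S, kcnn2.S, kcnn3.S, kcna6.S, kcnb2.S, kcnd1.S and kcng2.L. The Kv2 channel kcnb2.S, of the slow delayed rectifier type, stood at 21.03, 17.9 and 18.1 CPM in thioridazine and 22.5, 24.8 and 21.2 CPM in control brains, a difference of -0.26 ± 0.155. The axonal channel kcna6.S differed by -0.23 ± 0.144, the A-type channel kcnd1.S by -0.15 ± 0.187 and the silent subunit kcng2.L by -0.43 ± 0.243. At NF 45 these differences were 0.00 ± 0.155 for kcnb2.S, 0.04 ± 0.145 for kcna6.S, -0.08 ± 0.188 for kcnd1.S and 0.17 ± 0.242 for kcng2.L. At NF 45 the groups did not overlap in 3 of the 97 genes, with kcnj10.L below its controls (1.56% of all genes) and kcng2.S and kcnt2l.S above them (2.43%).

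All 5 BK genes were below 0 at both stages, with a median of -0.15 at NF 47 and -0.06 at NF 45. The BK pore gene kcnma1.L (373712) was lower in the thioridazine library of all 6 pairs, at 45.7, 43.97 and 45.2 CPM in thioridazine and 55.6, 45.3 and 47.4 CPM in control brains of NF 47, and 37.98, 47.9 and 35.00 CPM in thioridazine and 40.3, 48.5 and 37.1 CPM in control brains of NF 45. The differences were small, -0.14 ± 0.139 at NF 47 and -0.06 ± 0.139 at NF 45. The genes lower in all 6 pairs were 4 of the 97, 4.12% against 3.19% of all genes, so the share was near that of all genes. They were kcnn1.L, kcnma1.L, kcnh4.S and kcnj10.L. The ELK channel kcnh4.S, a voltage-gated channel found mainly in brain, differed by -0.19 ± 0.243 at NF 47 and -0.27 ± 0.243 at NF 45, and its other copy, kcnh4.L, by -0.17 ± 0.332 and -0.41 ± 0.332.

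The 3 Kv3 genes were below 0 at both stages, with medians of -0.37 at NF 47 and -0.36 at NF 45. Their errors were large: kcnc1.S differed by -0.22 ± 0.404 at NF 47 and -0.36 ± 0.401 at NF 45, and kcnc2.S by -0.39 ± 0.333 and -0.34 ± 0.336. Of the 11 Kv1 genes 10 were below 0 at NF 47, with a median of -0.15, and 4 at NF 45, with a median of 0.01. The gene kcna1.L differed by -0.15 ± 0.189 at NF 47 and 0.01 ± 0.189 at NF 45, and kcna2.L by -0.21 ± 0.406 and -0.26 ± 0.402. The Kv7 family had 7 of 8 genes above 0 at NF 47 and 2 of 8 at NF 45. Whether the treatment difference changed between stages was tested for each gene, and 0 of the 97 were called, with 0 at an unadjusted p under 0.05, against 0% and 0.342% of all genes.

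The glial inward rectifier kcnj10 carries the potassium uptake of astrocytes in mammals. In NF 47 brains kcnj10.L (494778) stood at 42.4, 55.5 and 54.8 CPM in thioridazine and 42.8, 61.6 and 60.98 CPM in control libraries, with overlap. At NF 45 it stood at 37.6, 34.6 and 39.6 CPM in thioridazine and 40.98, 57.5 and 47.8 CPM in control libraries, so that the highest exposed library lay below the lowest control. The log2 fold change was -0.12 ± 0.168 at NF 47 and -0.39 ± 0.169 at NF 45 (unadjusted p 0.04069 in edgeR, adjusted p 1). Its copy kcnj10.S differed by -0.21 ± 0.176 at NF 47 and -0.10 ± 0.177 at NF 45, and was lower in 5 of 6 pairs. Astroglia and radial glia markers summed to 5384, 4810 and 5482 CPM in thioridazine and 5673, 5417 and 4625 CPM in control brains of NF 45, where the groups overlapped. The part of glial content in the level of kcnj10.L was not tested.

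The partner of kcnj10 in glia, kcnj16, lay above 0 at NF 47 and NF 45, at 0.35 ± 0.633 and 0.16 ± 0.623 for kcnj16.L. The G-protein-gated channels, which transmitters open through their receptors, were mostly below 0: kcnj3.S differed by -0.37 ± 0.449 at NF 47 and -0.51 ± 0.446 at NF 45, kcnj3.L by -0.17 ± 0.393 and -0.23 ± 0.387, and kcnj9.L by -0.11 ± 0.291 and -0.09 ± 0.2899. The exception was kcnj5.L, at 0.17 ± 0.254 and 0.16 ± 0.252. The stage riser kcnj4.L was the 1 gene of the 97 higher in all 6 pairs, against 3.11% of all genes, with differences of 0.19 ± 0.203 at NF 47 and 0.27 ± 0.211 at NF 45. The heart and muscle channel kcnj2.S had few reads, at 0.5800 ± 0.319 CPM in thioridazine and 0.534 ± 0.1599 CPM in control brains of NF 47 (SD, n = 3 each).

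The gene with the smallest unadjusted p at NF 45 was kcne3.S, an auxiliary subunit of Kv7 and Kv3 channels just inside the read threshold. At NF 47 it stood at 0.769, 0.5104 and 0.815 CPM in thioridazine and 0.418, 0.528 and 0.563 CPM in control libraries. At NF 45 it stood at 0.303, 1.39 and 0.946 CPM in thioridazine and 0.2896, 0.374 and 0.462 CPM in control libraries, a log2 fold change of 1.24 ± 0.529 with an unadjusted p of 0.03738 in edgeR and an adjusted p of 1. Without thioridazine replicate 2 of NF 45 the value was 0.76. Groups overlapped at both stages, and its 12 libraries held 115 reads in all. It had at least 10 reads in only 4 libraries, all of them exposed. The gene thus entered the set through the group in which it was high, and its difference is not independent of that choice. Among K2P genes, 13 of 16 were below 0 for both stages averaged. The leak channels kcnk10.S and kcnk9.L differed in opposite directions at NF 45, by -0.49 ± 0.268 and 0.39 ± 0.232, and kcnk10.L by 0.03 ± 0.188. Both moved when single NF 45 libraries were left out: kcnk10.S was at -0.84 without thioridazine replicate 2 and at -0.29 without thioridazine replicate 3, and kcnk9.L was at 0.67 without control replicate 2 and at 0.15 without control replicate 1. The .L and .S copies of the sodium-activated channel kcnt2l also lay apart at NF 45, at -0.81 ± 0.403 and 0.29 ± 0.171, and with both copies summed the difference was -0.0331. Without control replicate 2 kcnt2l.L was at -0.44, and without control replicate 3 kcnt2l.S was at 0.17. Of 30 treatment differences of single genes followed with each library left out in turn, 19 moved by over 1.5 times and 0 changed sign. They belonged to the 10 genes with the smallest unadjusted p in edgeR at NF 47, at NF 45 and for both stages averaged. Genes picked in this way were unlikely to change sign, so the kept signs do not show a stable direction.

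The .L and .S copies of a gene were compared where both were in the set, in 33 pairs of copies. For the stage difference, both copies were above 0 in 18 pairs, both below 0 in 9 and opposite in 6, with a Pearson correlation of 0.76 across genes. For the treatment difference at NF 47 both were above 0 in 8, both below 0 in 18 and opposite in 7, with a correlation of 0.578, and at NF 45 the counts were 10, 16 and 7 and the correlation 0.263. Copies share libraries, and reads of similar sequence could be split between them, so the correlations are descriptions. Both copies were below 0 at both stages for kcnn1, kcnn2, kcnn3, kcnh4, kcnj3, kcnj10, kcnk1, kcna2, kcnt1 and kcnmb4. They were above 0 at both stages for kcnj4, kcnj8, kcnj13, kcnj16 and kcnq3.

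Partners of potassium channels outside the set, such as the beta subunits kcnab1 to kcnab3 and proteins that hold Kv1 channels at axons, had 16 gene copies tested. For stage 2 of them rose, where 1.97% of all genes did. These were cntnap1.L, a protein of the paranodes of myelinated axons, by 0.69 ± 0.148, and lgi1.S, a secreted Kv1-associated protein, by 0.48 ± 0.103. Each had an adjusted p of 0.03594 in edgeR. Of 21 copies of potassium pump and cotransporter genes 2 rose, against the same share of all genes. These were both copies of fxyd6, a modulator of the sodium-potassium pump, by 0.56 ± 0.0654 for fxyd6.S and 0.38 ± 0.0875 for fxyd6.L. The median stage difference was 0.26 for the partners and -0.01 for the pumps and cotransporters. For treatment 0 of either list were called at either stage, with medians of -0.01 and 0.02 at NF 47 and -0.10 and 0.03 at NF 45.

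Replicate number set some libraries apart across both stages and treatments. In kcnf1.S the libraries numbered 3 lay at 2.85 CPM for thioridazine and 2.11 CPM for control at NF 47, and at 1.66 CPM for thioridazine and 1.39 CPM for control at NF 45. The other 8 libraries lay between 6.11 and 10.6 CPM. Its .L copy, kcnf1.L, did not show this, with 38.6 and 38.9 CPM in the NF 47 libraries numbered 3, within the range of the others of that stage. A test of the replicate number as a term in the fit, chosen after the data were seen, called 5 of 97 genes, 5.15% against 2.92% of all genes. These were kcnf1.S, with an adjusted p of 0.0005582 in edgeR, and kcnh4.S, kcna3.L, kcne4.S and kcnj13.L, with adjusted p between 0.04009 and 0.04917.

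**Figure D5:**
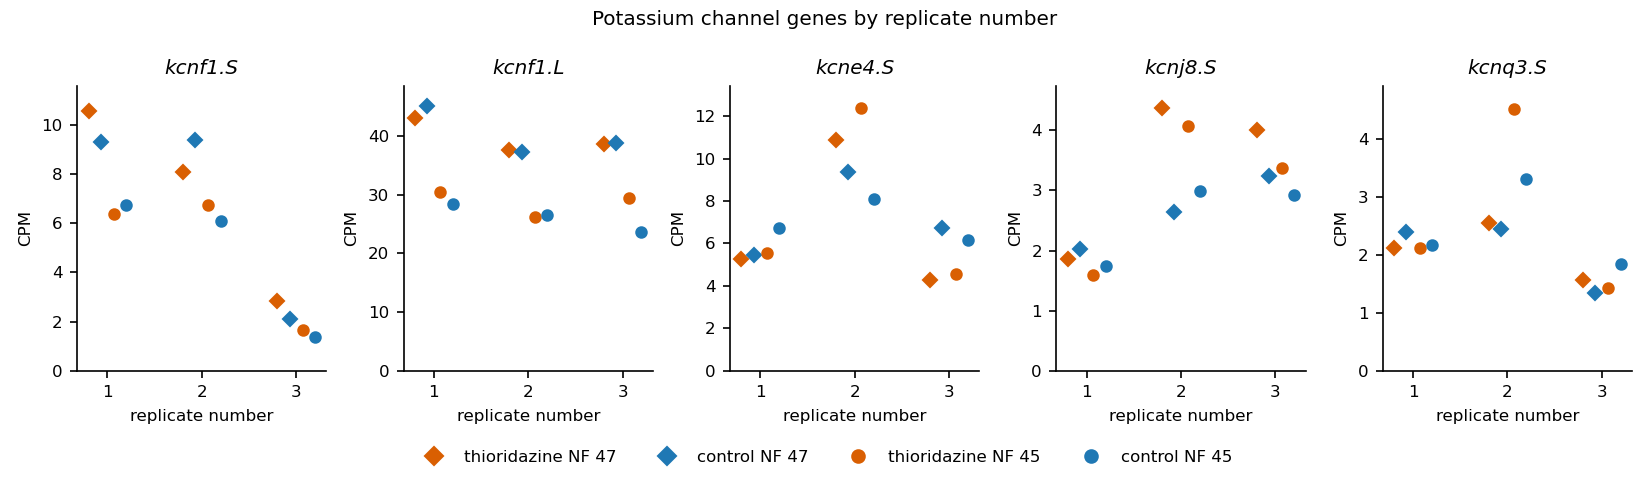
CPM of 5 potassium channel genes by replicate number, with diamonds for NF 47, circles for NF 45, and colour for treatment. In kcnf1.S the 4 libraries numbered 3 lie below the other 8, in kcne4.S those numbered 2 lie above, in kcnj8.S those numbered 1 lie below and in kcnq3.S those numbered 2 lie above, while kcnf1.L is ordered by stage.

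In 7 of the 97 genes all 4 libraries of a number lay outside the range of the other 8, against 6.62% of all genes, so the share was near that of all genes. In kcne4.S, an auxiliary subunit, the libraries numbered 2 lay between 8.10 and 12.4 CPM and the others between 4.28 and 6.75 CPM. In kcnj8.S, the pore of an ATP-sensitive channel known from pericytes, those numbered 1 lay between 1.59 and 2.03 CPM and the others between 2.64 and 4.37 CPM. The choroid plexus and pigment epithelium channel kcnj13.L lay between 13.7 and 22.0 CPM in libraries numbered 3 and between 9.41 and 14.5 CPM in the others. These ranges overlapped, so kcnj13.L was not among the 7 genes. The labels do not say what the number shares between stages.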

How the data were processed

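The authors deposited raw read counts, 1 table per library, of whole-brain RNA read as single-end 100 bp reads, per the labels' protocols. HTSeq, HISAT2, DESeq2 and Trimmomatic appear, without versions, in the submitters' processing notes. The build, strand setting and the handling of reads that match several places are not given in the sources used here, so levels of single .L or .S copies, of paralogs and of overlapping or antisense genes are uncertain. Symbols came from RefSeq genes of another assembly (names only), a table that named 33597 of 37018 gene numbers holding 99.33% of reads.

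The analysis used edgeR 4.0.16 (R 4.3.3): filterByExpr (26570 genes kept, all 97 potassium channel genes among them), TMM scaling, and the robust quasi-likelihood test in 1 fit of all 12 libraries, with Benjamini-Hochberg adjustment over all genes and a call at adjusted p under 0.05. The test was checked on simulated data. The simulated differences were larger than most of those given here, so its power for smaller ones was not checked. Log2 fold changes carry the standard error of the fit, and CPM uses TMM-scaled totals. DESeq2 1.42.0 and limma 3.58.1 (voom with quality weights) were alternatives. The median biological coefficient of variation was 20.8%. No replicates agreed within sampling noise (chi-square per gene 6.91 to 52.8).

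Deviations from group means correlated between same-numbered thioridazine and control libraries at 0.291, 0.318 and 0.54 at NF 47 and 0.575, 0.845 and 0.449 at NF 45, above 0.1 in every pair, so the numbers were taken to pair libraries within a stage. Between stages they ran from 0.186 to 0.429 in thioridazine and from -0.128 to 0.226 in control libraries. They were above 0.1 for every number in thioridazine but not in controls, so the numbers were not taken to pair libraries between stages.

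The members and gene lists were chosen with earlier results of these data known. Named were genes called in a contrast (up to 12 per direction, filled to 10 by unadjusted p), a fixed set of channels as far as they were in the data, and the 2 genes per family with the highest mean CPM. The fixed set held well-known channels, and kcnj10 and kcnn1 were in it because earlier results had named them. Other genes were chosen after their values were seen. Some genes are not reported here.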

Additional observations from a re-analysis of the deposited data

How the results depend on the processing

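For treatment, 0 of the 97 potassium channel genes were called in all 4 comparisons under every alternative run, including the replicate block within stage. The list medians kept their sign for NF 47 (-0.15 to -0.0458 with 1 library left out) and for both stages averaged (-0.13 to -0.04), but not for NF 45 (-0.17 to 0.03). For both stages averaged within pairs, the replicate block gave a median of -0.09.

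For stage with both treatments averaged, leaving out 1 library gave 1 to 9 calls, limma-voom 18, and leaving out both NF 45 libraries numbered 2 gave 22. DESeq2 called 9, RLE size factors 6, no filter 7, summed copies 7 of 64 and the replicate block over number 10. The counts over all genes moved as well, for example to 130 without NF 45 control replicate 3, against 794, or 2.99%, with all 12 libraries. The median was 0.30 without both NF 45 libraries numbered 2 and 0.25 without those and NF 45 control replicate 3, an alternative added after the data were seen. Within thioridazine, DESeq2 called 3, leaving out both libraries numbered 2 gave a median of 0.30, and leaving out 1 library gave medians of 0.0527 to 0.29. Within controls, DESeq2 called 5, limma-voom 8, and leaving out both libraries numbered 2 gave 8, of which 5 were higher and 3 lower. The replicate block over number called 0 in each.

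The difference between stages in the treatment effect of kcnj10.L turned to -0.0464 with limma-voom. With copies summed, kcnt2l turned to -0.0331 for treatment at NF 45 and to 0.0347 for the difference between stages. The cause was not tested. Genes under about 1 CPM, such as kcne3.S, kcnj2.S and kcna7.S, rest on a few reads per library; differences in them are poorly resolved at this depth.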
